A study of Caenorhabditis elegans with 36 samples.

Results

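The left end of chromosome X was examined as a block of 58 neighbouring genes out of the 20167 genes measured. A gene was taken when it lay on X, started below position 400000 (WS190 coordinates) and was not one of the 6 AC8 genes, a cluster at X:226651-240779 that lies inside the block and was left out. Of the 58 genes, 37 lay to the left of the AC8 genes, towards the chromosome end, and 21 to the right. The block was chosen by its differences between the hrde-1 mutant and wild type in these same libraries, so every difference between the genotypes given here is a description with no test. The current annotation lists 35 of the genes as protein coding and 17 as pseudogenes, and 6 were not found in it. On the left 18 were protein coding, 14 were pseudogenes and 5 were not found, against 17, 3 and 1 on the right.

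In nuclear RNAi, small RNAs bound to an Argonaute protein guide silencing to matching genes while they are being transcribed. HRDE-1 is the nuclear Argonaute of the C. elegans germline, and its targets commonly carry trimethylation of lysine 9 on histone H3 (H3K9me3), a mark of silent chromatin. RNA polymerase II (Pol II) phosphorylated at serine 2 of its tail is the elongating form, so its ChIP-seq signal follows transcription along gene bodies. Chromosome arms and ends in C. elegans are rich in repeats, pseudogenes and H3K9 methylation.

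Chromatin of whole young adults was profiled in wild type (WT, strain N2) and in the hrde-1(tm1200) mutant at 6 generations of a temperature shift. Animals were sampled once at 15 °C before the shift (15C-G3, with G for the generation number at that temperature). They were sampled 3 times at 23 °C (23C-G2, G4 and G6) and, once back at 15 °C, in the first generations there (p15C-G1 and G2). Each genotype and generation gave 1 library each of Pol II, H3K9me3 and input, 36 libraries in all, from biological repeat 2. Each strain was followed as 1 lineage, so the replicates are successive generations and the mutation cannot be told apart from any other difference between the strains. In whole animals, fewer cells with a signal and less signal per cell cannot be told apart.

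The Pol II libraries held between 3.07 and 5.66 megareads, those of H3K9me3 between 2.07 and 7.97, and those of input between 0.221 and 1.31. The median gene of the block had 68.1, 183.8 and 14.4 reads in them. Levels are in RPKM as deposited, reads per kilobase and per megaread of the library. The length in these values fits that of the gene with about 1 kb added. In a short gene such as Y73B3A.20 (698 bp) the added part is longer than the gene. Differences are hrde-1 minus WT on the scale of log2(RPKM + 1). Pol II at the hrde-1 gene itself (III:4172307-4176132) was 140 ± 28.2 RPKM in WT and 94.2 ± 19.4 in the mutant (SD, n = 6 generations each), a whole-gene value that does not locate the deletion. Germline marker genes carried 19.1 to 129 RPKM of Pol II in WT and 16.2 to 101 in hrde-1, oocyte markers 45.9 to 151 and 36.9 to 124, intestine and yolk markers 2.31 to 252 and 2.41 to 201, and neuronal markers 5.09 to 41.9 and 5.8 to 40. Sperm markers ranged from 2.56 to 17.8 RPKM in WT and 3.37 to 15.9 in hrde-1, body wall muscle markers from 4.92 to 11.7 and 5.55 to 15.5, and hypodermis markers from 1.98 to 7.95 and 3.15 to 10.9. In Pol II every germline marker (-0.42 to -0.23) and every oocyte marker (-0.30 to -0.10) was lower in hrde-1. Every muscle marker (0.23 to 0.41) and every hypodermis marker (0.07 to 0.47) was higher, and the sperm, intestine and neuronal lists were mixed. Whether this bears on the block was not tested.

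Reads over this block were often not whole, as when a read that matches several places is shared between them. In 44 of the 58 genes (75.9%) the values did not correspond to whole reads, that is, lay more than 0.05 reads from a whole number in over 50% of libraries, against 28.3% of the 53 genes in the adjacent window of X (starts from 400000 to 800000), 18.8% of the other X genes and 26.2% of autosomal genes. The share was 83.8% on the left and 61.9% on the right of the AC8 genes. The steps between values fit a gene length with about 1 kb added, and 21 of 56 neighbouring pairs lay closer than that. Adjacent genes, or similar copies elsewhere, may therefore share reads, and a level here may belong partly to them.

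In WT, Pol II over the 37 left genes was uneven. The highest level was at Y73B3A.18, a pseudogene, with 38.6 ± 5.5 RPKM, followed by the pseudogene Y73B3A.9 (30.6 ± 5.3), Y73B3A.1 (22.0 ± 3.91) and Y73B3A.10 (22.0 ± 3.73). The ranges of Y73B3A.18 and Y73B3A.9 overlapped (30.3 to 45.3 and 24.0 to 38.3), and Y73B3A.1 and Y73B3A.10 had nearly equal means. On the right, dbd-18 had the highest mean, 19.8 ± 9.55, with single libraries from 11.5 to 34.2. H3K9me3 in WT was highest at Y73B3A.18 (38.2 ± 3.77 RPKM), elk-2 (34.8 ± 1.31), Y73B3A.13 (32.2 ± 3.02), Y73B3A.9 (31.9 ± 3.93) and Y73B3A.2 (30.1 ± 3.27), all on the left, and their ranges overlapped from one to the next. elk-2 is named for similarity to the ETS family of transcription factors. Y73B3A.18 and Y73B3A.9 thus stood among the highest in both marks.

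In hrde-1, Pol II was lower over most of the left genes and near the WT level over the right genes. Summed over the 37 left genes, Pol II took 1470 reads per megaread in WT before the shift, 1420, 1440 and 1340 at 23C, and 1390 and 1440 after the return. The same sum in hrde-1 was 556 before the shift, 867, 839 and 802 at 23C, and 778 and 586 after the return, an order of generations kept in the lists of values that follow. Every hrde-1 library lay below every WT library, with means of 738 ± 133 and 1420 ± 45.9 (SD, n = 6). The right genes, with dbd-18 left out after its values were seen, summed to 452 ± 56.1 in hrde-1 and 457 ± 47.5 in WT, and these ranges overlapped (371 to 515 and 402 to 534).

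**Figure D1:**
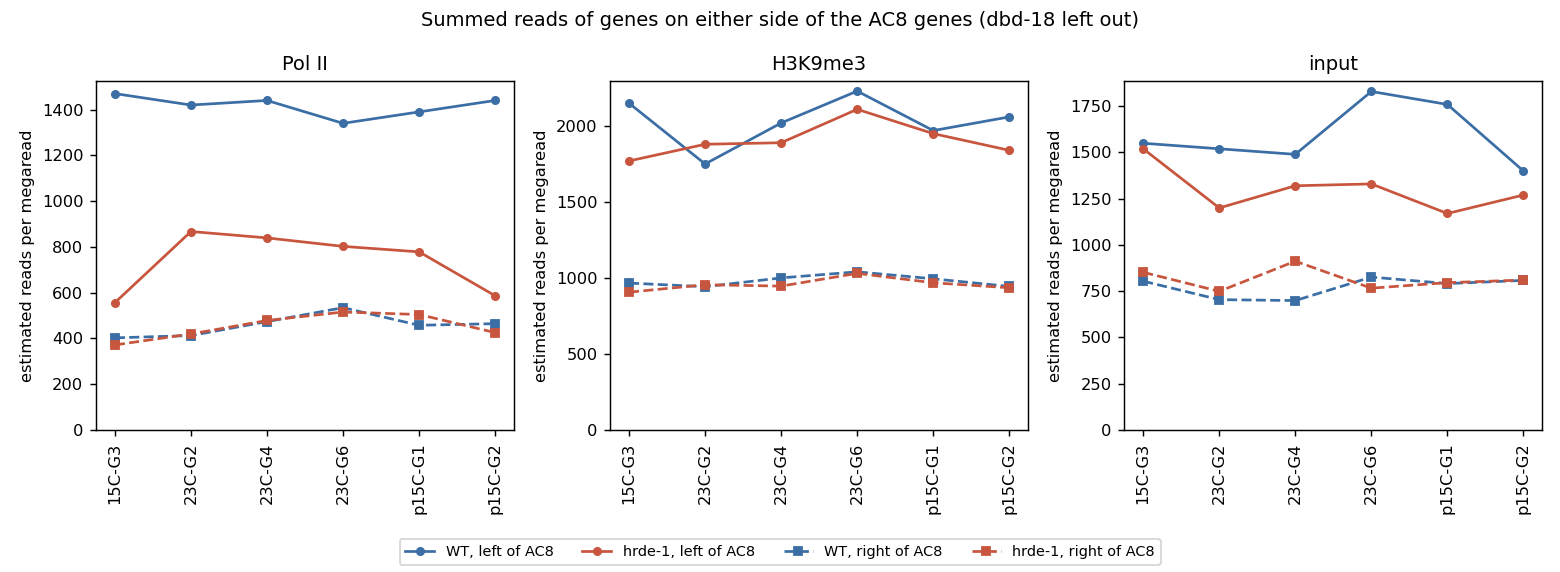
Reads per megaread summed over the left and the right genes (y axis, dbd-18 left out) in each generation (x axis) for Pol II, H3K9me3 and input, with 1 point per library and a line per genotype and side. In the Pol II panel the left genes of hrde-1 run between 556 and 867, below the WT range of 1340 to 1470, while the right genes of both genotypes overlap.

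Gene by gene, the median Pol II difference was -0.68 over the 37 left genes, 0.02 over the 21 right genes, 0.14 over the 53 genes starting between 400000 and 800000 on X, and 0.07 over all genes. Of the left genes 33 were lower in hrde-1, 23 of them by more than 0.5 on the log2 scale. In 22 left genes all 6 hrde-1 libraries lay below all 6 WT libraries, a pattern of 0.372% of all genes (75), and no right gene and no gene of the adjacent window had it. A rule for calling genes that the study states for its RNA data, at least 2-fold with an adjusted p up to 0.1, was applied here to the limma fit of log2(RPKM + 1). It marked 9 left genes as lower, beside 0.0945% of all genes (19 of 20116 tested), and no gene of the block as higher, beside 0.805%. The block was chosen on this contrast, so these counts only describe it. At the other 11 chromosome ends the median Pol II difference of the outermost 400000 bases lay between -0.10 and 0.11, and at most 1 gene per end was called lower.

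**Figure D2:**
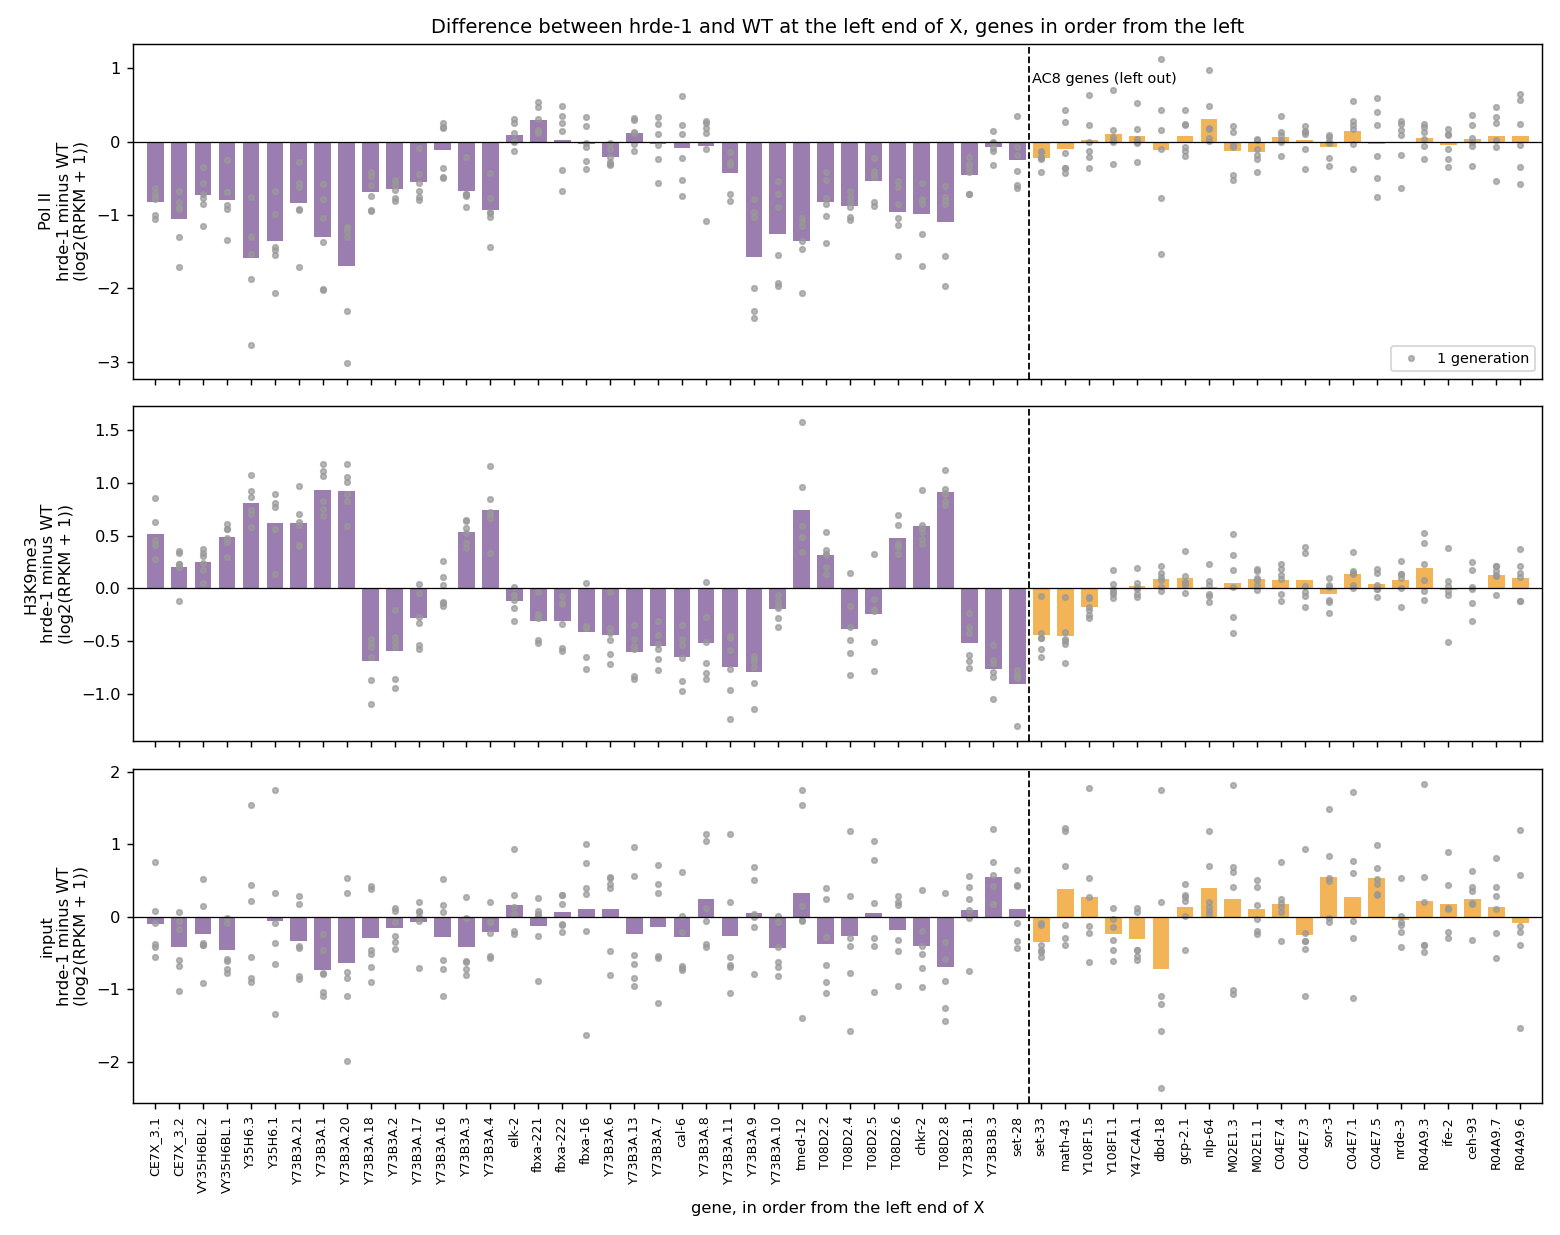
Difference hrde-1 minus WT on the log2(RPKM + 1) scale (y axis) for each of the 58 genes in their order along X (x axis), for Pol II, H3K9me3 and input, with bars for the mean of 6 generations (purple left and orange right of the dashed line at the AC8 genes) and grey points for single generations. Pol II differences on the left reach -1.70 with a run of genes near 0 in the middle, and on the right lie between -0.23 and 0.31, while H3K9me3 alternates between runs of higher and of lower genes.

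The largest Pol II difference was at Y73B3A.20 (X:47799-48496), a short protein-coding gene. Its Pol II levels in WT were 14.3, 10.9, 14.0, 13.9, 10.6 and 15.7 RPKM by generation, and in hrde-1 0.891, 3.83, 5.74, 5.58, 3.94 and 2.38. The genotypes did not overlap, the lowest value was the hrde-1 library at 15C-G3 (5 reads against 92 in WT), and the difference was -1.70 (SE 0.15). The ratio of the mean RPKM in WT to that in hrde-1 was 3.56. This gene is one of those whose values are whole reads. Of the 6 left genes with whole reads, 3 had all hrde-1 libraries below all WT libraries in Pol II. The rest, Y73B3A.13 (0.12), cal-6 (-0.09) and Y73B3A.8 (-0.06), differed little.

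Y35H6.3 (X:32451-34439), a pseudogene also counted in whole reads, had 10.4, 8.18, 8.82, 6.1, 9.28 and 9.2 RPKM of Pol II in WT. In hrde-1 it had 0.658, 2.77, 2.99, 3.22, 2.56 and 1.78. Again no hrde-1 library reached the lowest WT library, and 15C-G3 was the lowest. The difference was -1.59 (SE 0.14). Its neighbour Y35H6.1 (X:34798-35454), the remaining called gene with whole reads, went from 6.69 ± 0.907 to 2.07 ± 0.819 RPKM (difference -1.36, SE 0.16). These neighbours lie closer than the added 1 kb mentioned above.

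Y73B3A.9 (X:150365-154445) combined a high level with a large difference. Pol II there was 38.3, 28.5, 26.3, 24.0, 33.1 and 33.6 RPKM in WT, and 6.97, 16.2, 12.4, 11.9, 7.55 and 5.54 in hrde-1. The hrde-1 libraries at 23C were the high ones and those at 15C-G3 and after the return were the low ones, none overlapping WT, and the difference was -1.58 (SE 0.10). The adjacent Y73B3A.10 (X:154783-157360) behaved alike, with 22.0 ± 3.73 against 8.86 ± 2.98 RPKM (-1.26, SE 0.10). Y73B3A.9 and Y73B3A.10 also lie closer than the added 1 kb, so they may share reads.

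Y73B3A.1 (X:42875-47060), a protein-coding gene just left of Y73B3A.20, had 27.6, 18.1, 23.9, 18.1, 19.7 and 24.6 RPKM of Pol II in WT and 6.06, 11.8, 11.1, 10.1, 7.01 and 5.36 in hrde-1. The groups did not overlap (difference -1.30, SE 0.11). Y73B3A.1 and Y73B3A.20 lie closer than the added 1 kb and may share reads, although the values of Y73B3A.20 are whole reads. tmed-12 (X:162529-163134), named for the p24 family of proteins that carry cargo in the early secretory pathway, had 17.1, 16.4, 20.6, 17.6, 13.6 and 16.9 in WT and 3.31, 7.2, 9.48, 7.4, 4.69 and 5.51 in hrde-1. Every hrde-1 value of tmed-12 was under the lowest WT value (difference -1.36, SE 0.11). T08D2.8 (X:194448-197901; -1.09, SE 0.14) and the pseudogene CE7X_3.2 (X:7582-9303; -1.05, SE 0.10) complete the 9. Both fell short of 2-fold when either library of 15C-G3 was left out (-0.91 and -0.92) and when hrde-1 p15C-G2 was left out (-0.97 and -0.98).

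Below the 2-fold line the same direction continued. chkr-2 (X:182691-190559) had 14.3 ± 1.75 RPKM of Pol II in WT and 7.04 ± 2.63 in hrde-1 (difference -0.99, SE 0.11). T08D2.6 was at 11.3 ± 1.5 and 5.43 ± 1.43 (-0.96), T08D2.2 at 9.41 ± 0.815 and 4.96 ± 1.18 (-0.83), and CE7X_3.1 (X:3623-7154), the outermost gene, at 8.46 ± 1.26 and 4.41 ± 1.11 (-0.82). None of these 4 overlapped between genotypes. Y73B3A.18, the gene with most Pol II, had 41.6, 30.3, 42.1, 34.5, 37.5 and 45.3 RPKM in WT and 24.5, 22.6, 30.0, 22.6, 19.2 and 23.1 in hrde-1, a smaller difference (-0.68, SE 0.11) with the ranges just apart.

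The lower Pol II was not continuous along the left genes. The first 12 genes from the chromosome end all had non-overlapping genotypes. In the run of 10 genes from elk-2 (X:106971-109378) to Y73B3A.11 (X:146463-148812) none did, and the differences there ran from -0.43 at Y73B3A.11 to 0.29 at fbxa-221. That run includes 3 genes of the fbxa family of F-box proteins (fbxa-221, fbxa-222 and fbxa-16), had WT Pol II levels of 1.19 to 9.24 RPKM, and carried 22.7 to 34.8 RPKM of H3K9me3 in WT. From Y73B3A.9 to Y73B3B.1, 9 of 10 genes again did not overlap, T08D2.5 being the exception. The next 2 genes, Y73B3B.3 (-0.07) and set-28 (-0.26), closed the left side with small differences.

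By phase, the left genes had a median Pol II difference of -0.89 at 15C, -0.60 at 23C and -0.75 after the return. In single generations it was -0.89, -0.58, -0.68, -0.66, -0.53 and -0.85, so it was negative in each of them. The rule called 12 left genes lower at 15C (0.0646% of all genes), 4 at 23C (0.0547%) and 9 at p15C (0.124%), and the right genes gave no call in any phase. The 15C phase has 1 library per genotype, whose spread was taken from the other groups. At p15C, 25 genes of the whole table were called lower and 166 higher (13.1% lower). With every library centred on its median gene the split was 53 to 115 (31.5% lower) and 13 genes of the block were called lower, and with quantile normalization it was 66 to 165 (28.6%) and 16. Centring shifts the median Pol II difference of all genes by -0.14, from 0.07 to -0.07, and that of the 58 genes from -0.14 to -0.28. It takes the same value off all genes of a library, so the distance between these medians could not change.

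H3K9me3 did not move one way over the left genes but levelled out. Genes with a high level in WT had less of the mark in hrde-1 and genes with a low level had more. The median difference was -0.20 over the left genes, 0.05 over the right genes and 0.08 over all genes, and the summed H3K9me3 reads per megaread were 1910 ± 116 in hrde-1 and 2030 ± 166 in WT. In 12 left genes all hrde-1 libraries lay above all WT libraries (1.57% of all genes) and in 10 all lay below (3.17%), with 1 further gene below on the right (math-43, named after its values were seen).

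The signs ran in stretches along the chromosome. All of the first 9 genes, from CE7X_3.1 to Y73B3A.20, were higher in hrde-1, and all 12 genes from elk-2 to Y73B3A.10 were lower. The 3 genes T08D2.6, chkr-2 and T08D2.8 were higher again, and the last 3 left genes and first 3 right genes around the AC8 cluster were all lower.

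Of the genes that gained H3K9me3, Y73B3A.20 had 5.66, 3.94, 3.93, 4.21, 5.86 and 4.45 RPKM in WT and 11.4, 8.98, 6.41, 9.85, 11.2 and 11.3 in hrde-1. Its genotypes did not overlap and the difference was 0.93 (SE 0.10). Y73B3A.1 went from 8.75, 5.6, 5.59, 6.1, 8.93 and 8.52 to 14.7, 13.3, 12.8, 15.0, 15.7 and 15.9, also without overlap (0.94, SE 0.07). T08D2.8 (6.15 ± 0.602 and 12.5 ± 1.25 RPKM; 0.91, SE 0.08) and Y35H6.3 (4.43 ± 0.598 and 8.55 ± 1.06; 0.81, SE 0.09) showed the same. tmed-12 (4.69 ± 1.92 and 8.05 ± 1.06; 0.74) and chkr-2 (6.44 ± 0.996 and 10.2 ± 1.48; 0.59) were also higher in all 6 generations. These 6 genes all had less Pol II in hrde-1.

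Of the genes that lost H3K9me3, set-28 (X:214697-215575), the last gene before the AC8 cluster, encodes a protein with a SET domain, the domain of most histone lysine methyltransferases. It had 24.2, 19.7, 18.4, 22.2, 20.4 and 19.96 RPKM in WT and 9.2, 11.1, 9.95, 11.9, 10.8 and 10.8 in hrde-1, with no overlap (difference -0.90, SE 0.07). Y73B3A.9 had 37.8, 27.0, 32.4, 33.7, 28.03 and 32.6 RPKM in WT and 16.6, 16.4, 20.5, 19.7, 17.2 and 17.0 in hrde-1 (-0.80, SE 0.09). At Y73B3A.9 both marks were therefore lower in every generation, unlike at Y73B3A.20. Y73B3B.3 (18.8 ± 1.96 and 10.6 ± 1.44; -0.77), Y73B3A.11 (23.8 ± 3.58 and 14.0 ± 3.2; -0.74), Y73B3A.18 (38.2 ± 3.77 and 23.4 ± 3.99; -0.69), Y73B3A.13 (32.2 ± 3.02 and 20.8 ± 2.24; -0.61) and Y73B3A.2 (30.1 ± 3.27 and 19.9 ± 4.18; -0.59) followed. elk-2 was the exception among the highest genes, with 34.8 ± 1.31 RPKM in WT and 31.9 ± 2.3 in hrde-1 (-0.12) and overlapping ranges.

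The 2-fold rule called none of these over the 6 generations, beside 0.848% of all genes lower (171) and 0.0% higher, with 4588 genes of the table at an unadjusted limma p under 0.05. In single phases it called 4 left genes lower at 15C (0.982%). It called tmed-12 (1.04) and Y73B3A.1 (1.12) higher at 23C, the only 2 genes of the table called so (0.00992%), and Y73B3A.20 (1.00) and T08D2.8 (1.01) higher at p15C, again the only 2 (0.00992%). These differences sit at the 2-fold limit, and with median centring the counts of the block were 1 at 23C and 0 at p15C.

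**Figure D3:**
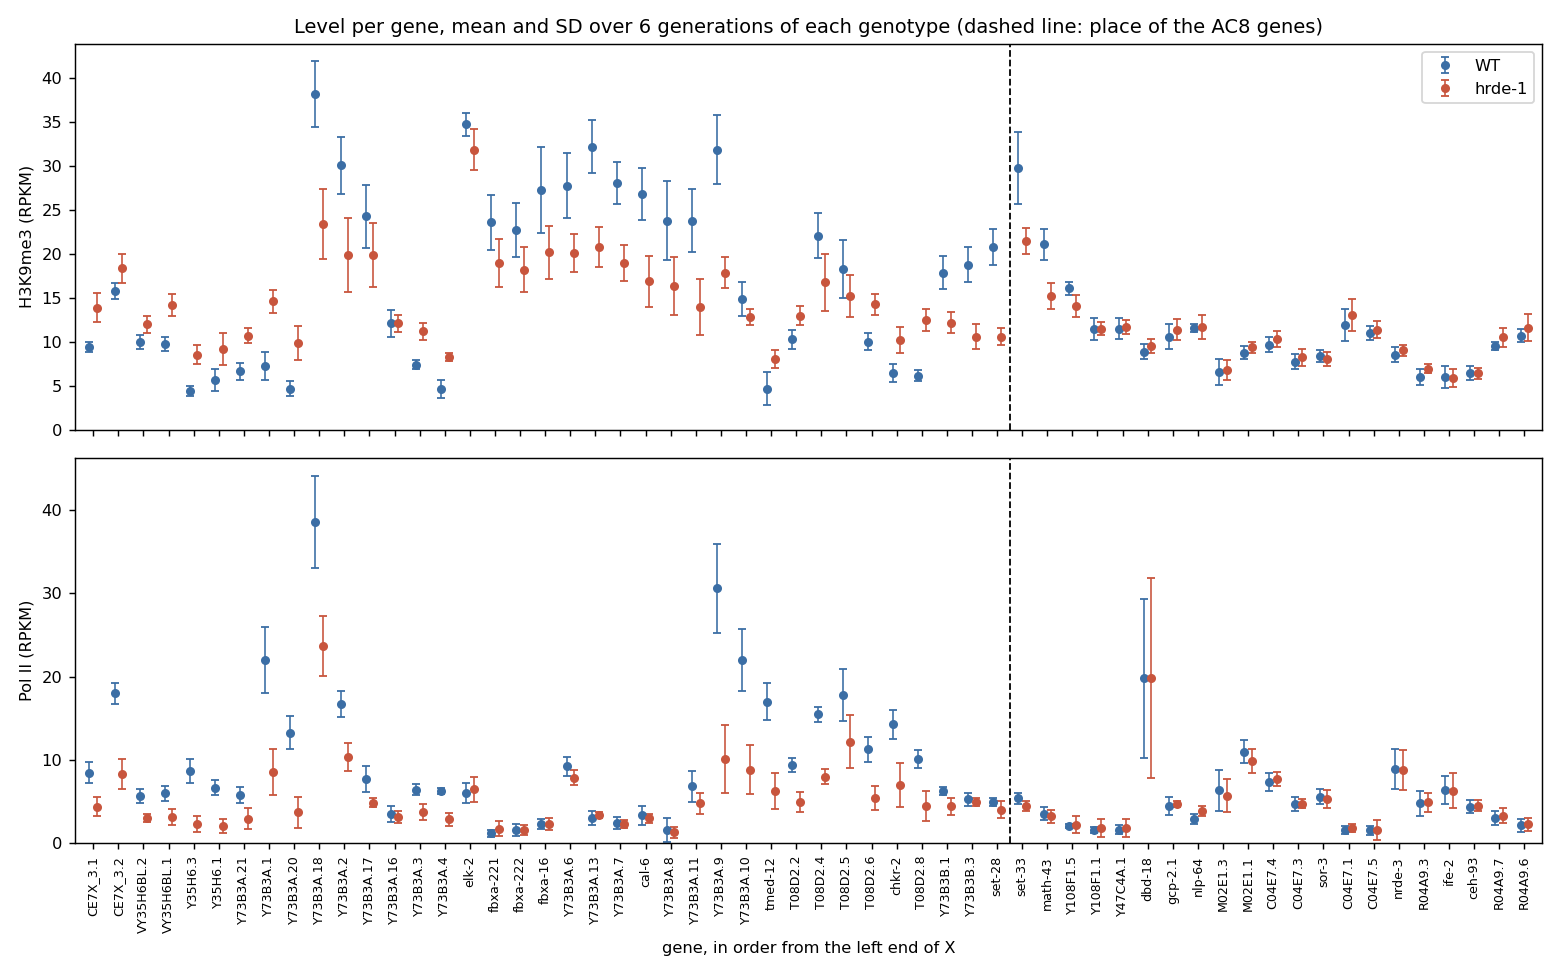
Pol II and H3K9me3 levels in RPKM (y axis, linear scale; points are means and bars the SD over the 6 generations of each genotype) of the 58 genes in their order along X (x axis), with a dashed line at the place of the AC8 genes. The H3K9me3 points of the left genes spread from 4.43 to 38.2 RPKM in WT and from 8.05 to 31.9 in hrde-1.

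The levelling can be read from the spread between genes. Within each library, the SD of log2 H3K9me3 over the 37 left genes was 0.79 to 1.00 in WT and 0.35 to 0.57 in hrde-1, with no overlap between the genotypes. Over the right genes it was 0.48 to 0.64 and 0.39 to 0.48, over the adjacent window 0.35 to 0.49 and 0.30 to 0.47, and over all genes 0.80 to 0.91 and 0.73 to 0.79. For Pol II over the left genes it was 0.90 to 1.21 in WT and 0.56 to 0.91 in hrde-1. Over the right genes it was 0.69 to 0.99 and 0.50 to 1.03, and over the adjacent window 0.78 to 1.02 and 0.60 to 1.06. Over all genes the Pol II spread was 1.30 to 1.66 in WT and 1.06 to 1.54 in hrde-1. For input over the left genes it was 0.62 to 0.72 and 0.31 to 0.79. Split at 16 RPKM of WT H3K9me3, a value chosen after the levels were seen, the 19 left genes above it ran from 17.9 to 38.2 RPKM in WT and from 10.6 to 31.9 in hrde-1, and all 19 were lower (median -0.52). The 18 genes below it ran from 4.43 to 15.8 and from 8.05 to 18.4, and 16 were higher (median 0.56). The split and the difference use the same WT libraries. This overlap alone makes high genes tend to fall and low genes to rise, so the counts only describe. The 18 genes low in H3K9me3 had the larger Pol II difference, a median of -0.98 with all 18 lower, against -0.21 with 15 lower in the others.

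To keep the same libraries from entering both sides, the WT level was taken at p15C and the difference at 23C. This keeps apart only the noise of single libraries. A gene's WT level carries over between phases, as in H3K9me3 at Y73B3A.18 (38.0 RPKM at 23C and 37.7 at p15C). The WT level thus still enters both sides, and a narrower spread in hrde-1 alone gives a negative value. The correlations restate that spread and are no separate support for the levelling. Across the 37 left genes, the WT H3K9me3 level and the H3K9me3 difference had Pearson's r = -0.88 and Spearman's rho = -0.84. Across the 21 right genes the values were -0.64 and -0.3, across the adjacent window 0.11 and 0.1, and across autosomal genes -0.38 and -0.36. The Pol II level and the Pol II difference on the left had -0.59 and -0.6. The adjacent window had -0.15 and -0.09 for this pair, and autosomal genes -0.31 and -0.42. On the left, the Pol II difference at p15C and the H3K9me3 difference at 23C had -0.48 and -0.48. For that pair the adjacent window had 0.43 and 0.23, and autosomal genes -0.25 and -0.14. These are correlations across genes, which share libraries and neighbouring reads and are not independent.

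The right genes had similar levels in both genotypes for both marks, with the exception of those next to the AC8 cluster. set-33 (X:256210-260110), a pseudogene named for a SET domain and the first gene to the right, had 31.1, 22.6, 31.6, 33.4, 27.3 and 32.6 RPKM of H3K9me3 in WT and 20.6, 21.5, 22.6, 23.9, 20.1 and 20.3 in hrde-1. Only the WT library of 23C-G2 fell into the hrde-1 range (difference -0.44, SE 0.10), and Pol II differed by -0.23. math-43 (X:269127-270029) was at -0.45 in H3K9me3 and -0.10 in Pol II. Beyond these the H3K9me3 differences lay between -0.18 and 0.19.

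Further right, 2 genes with known roles were added after their values were seen. nrde-3 (X:372236-376898) encodes the nuclear Argonaute of somatic cells, the counterpart of HRDE-1. Its Pol II was 9.63, 5.5, 9.99, 12.5, 7.63 and 7.99 RPKM in WT and 5.87, 6.66, 12.3, 10.9, 8.64 and 8.54 in hrde-1, fully overlapping (difference -0.01, SE 0.18), and its H3K9me3 difference was 0.08. ife-2, a cap-binding translation factor of the eIF4E family, was at -0.05 and -0.02. The last gene inside the bound, R04A9.6 (X:398689-400671), had 2.15 ± 0.766 RPKM of Pol II in WT and 2.3 ± 0.796 in hrde-1, and the first outside, R04A9.1 (X:404898-405358), had 6.66 ± 2.98 and 5.28 ± 2.5. The bound thus fell in a stretch with little difference on either side. The AC8 genes between both sides had more Pol II in hrde-1 (median 0.81) and less H3K9me3 (median -1.01), opposite in Pol II to the left genes beside them.

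Input was read as a set, since it is sequenced at lower depth. The left genes summed to 1300 ± 124 reads per megaread in hrde-1 and 1590 ± 167 in WT (1170 to 1520 and 1400 to 1830), and the right genes to 814 ± 59.9 and 772 ± 55.8. The median input difference was -0.18 on the left and 0.18 on the right. Input was thus also lower on the left in hrde-1 in each generation, by less than Pol II, and the ranges of the genotypes overlapped. No gene of the block was free of overlap in input. Of all genes, 57 (0.283%) had every hrde-1 library below every WT library, and 65 had every one above. None of the block was called, beside 0.00496% of all genes called lower, and 2296 genes of the table had an unadjusted limma p under 0.05. The genes with the largest input differences were Y73B3A.1 (23.2 ± 4.47 RPKM in WT, 14.1 ± 5.38 in hrde-1; -0.73), dbd-18 (-0.71), T08D2.8 (-0.70), Y73B3A.20 (-0.64), Y73B3B.3 (0.56), sor-3 (0.55), C04E7.5 (0.54) and VY35H6BL.1 (-0.46). The input of dbd-18 was 1000 RPKM in the hrde-1 library of 23C-G2 and 8.97 to 129 in the others of hrde-1, far beyond the rest of the block.

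Across the left genes the input and the Pol II differences had r = 0.41 and rho = 0.41, and the input and the H3K9me3 differences -0.5 and -0.43. In the adjacent window of X the values were 0.41 and 0.35 for Pol II, and 0.34 and 0.27 for H3K9me3. Across autosomal genes they were 0.06 and 0.11, and 0.07 and 0.07. After division by the mean input of each genotype, 5 genes of the block were still called lower in Pol II (0.204% of all genes were), among them Y73B3A.20, Y35H6.3 and Y73B3A.9. Y73B3A.1 (-0.62), T08D2.8 (-0.48), CE7X_3.2 (-0.65) and Y73B3A.10 (-0.88) were not. After the same division the rule called 2 genes of the block lower in H3K9me3 (1.04% of all genes) and 5 higher (0.268%, or 54 genes against 0 without the division).

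The change of temperature within each genotype was fitted with limma, with Benjamini-Hochberg adjustment over all genes. In hrde-1 the 15C side is the single library of 15C-G3, which also entered the genotype difference that chose the block, so its changes from 15C to 23C are given without a test. Pol II was higher at 23C by 1.66 (SE 0.30) at Y73B3A.20 and by 1.12 (SE 0.22) at chkr-2, the 2 genes of the block that the rule called (0.179% of all genes, 36). The SE takes the spread of that lone library from the other groups, and with only the groups compared in the fit neither was called. In hrde-1 the Pol II levels of chkr-2 were 3.61 RPKM at 15C-G3 and 10.5, 8.98 and 7.86 at 23C, and 6.86 and 4.48 after the return. In WT they were 13.9 at 15C-G3, then 15.96, 16.3 and 14.9, and 12.5 and 12.1, so all hrde-1 values stayed under those of WT. Neither call held when the hrde-1 library of 23C-G4 or 23C-G6 or the WT library of p15C-G2 was left out, and 5 genes of the block were called without either library of 23C-G2.

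The next largest differences in hrde-1 were at Y35H6.3 (1.27), T08D2.8 (1.17), Y73B3A.21 (1.13) and tmed-12 (1.06), none of them called. The median change of the left genes was 0.45 in hrde-1, with 32 of 37 positive, and 0.07 in WT. Over the right genes it was 0.32 and 0.30, and over all genes 0.07 and 0.14. In WT no gene of the block changed by the rule in Pol II (0.0149% of all genes were called higher; 4 left and right genes together had an unadjusted limma p under 0.05). The largest WT values were 1.00 at R04A9.6, 0.93 at Y73B3A.11, 0.92 at M02E1.3, 0.91 at dbd-18 and 0.61 at fbxa-222, with adjusted p of 0.57 or more.

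**Figure D4:**
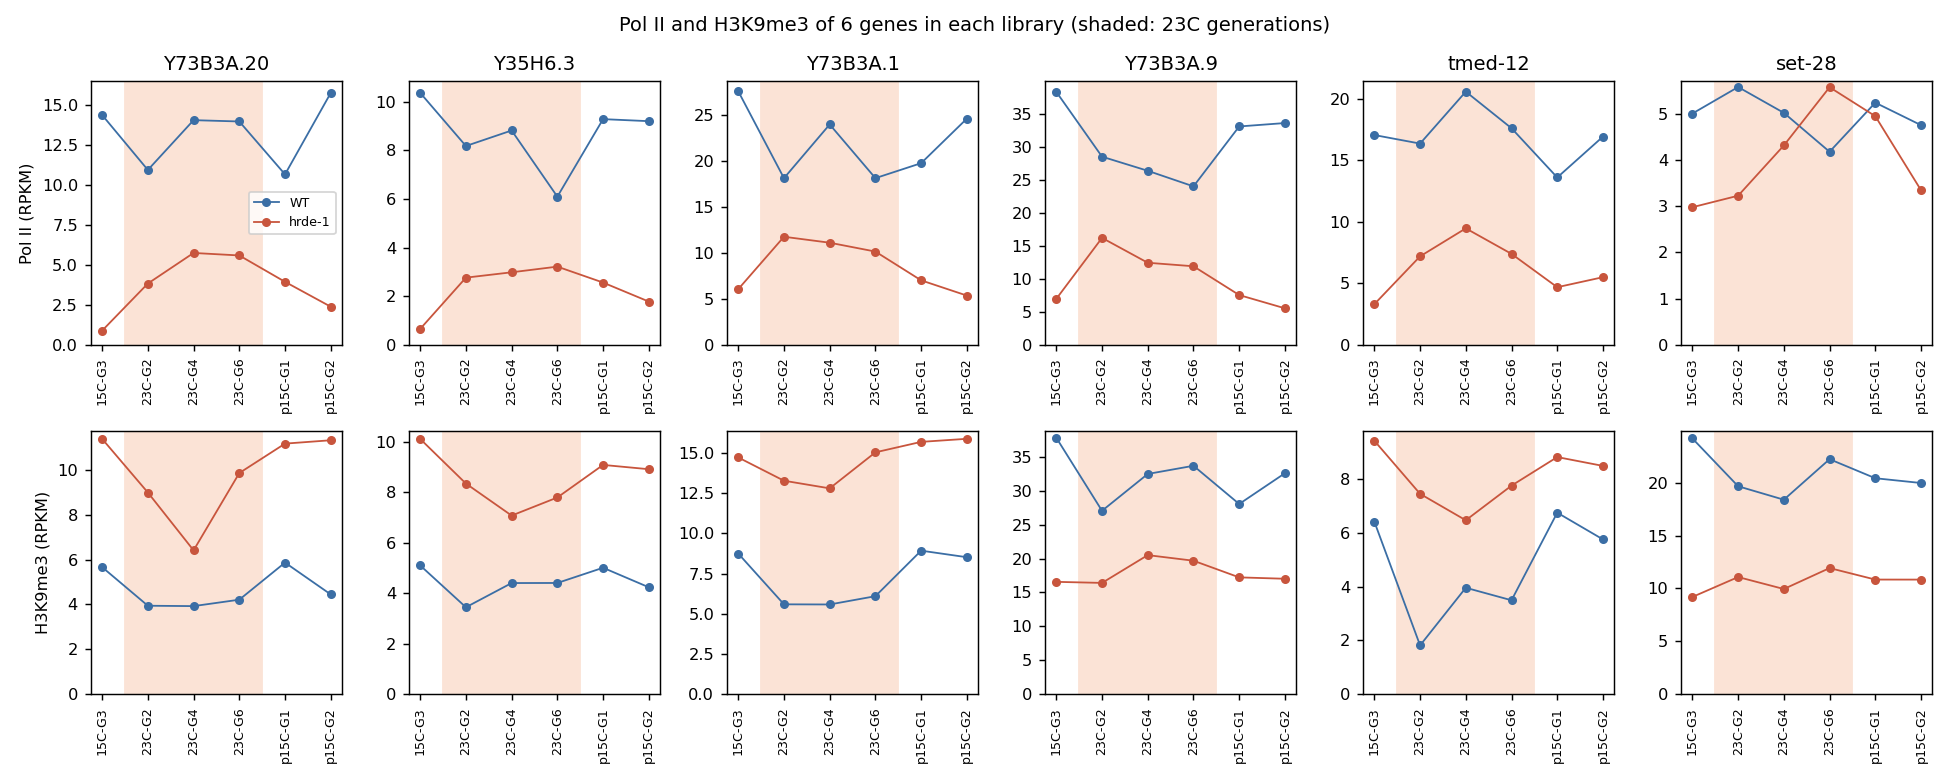
Pol II and H3K9me3 levels in RPKM (y axes) of 6 left genes in each of the 6 generations (x axis) for WT and hrde-1, 1 point per library, with the 23C generations shaded. The Pol II points of Y73B3A.20 in hrde-1 go from 0.891 at 15C-G3 to 3.83 to 5.74 at 23C and 2.38 at p15C-G2, all below the lowest WT point of 10.6.

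After the return to 15 °C no gene of the block passed the rule for Pol II in either genotype, beside 0.184% of all genes called higher and 0.184% called lower in WT and 0.0199% called lower in hrde-1. At an unadjusted limma p under 0.05 there were 2 genes of the block in WT and 11 in hrde-1. Of all 20116 genes tested, 1322 in WT and 1641 in hrde-1 had such a p. The libraries of both phases also entered the genotype difference that chose the block, so these counts and the hrde-1 changes below only describe. Y73B3A.9 came nearest to a call in hrde-1 (-0.94). dbd-18 (-1.21), C04E7.5 (0.97), Y73B3A.1 (-0.75) and T08D2.5 (-0.63) had the other large values in hrde-1. In WT the largest were -0.49 at Y73B3A.16, -0.46 at dbd-18, -0.42 at Y73B3A.17, 0.42 at Y73B3A.10 and -0.39 at M02E1.3. H3K9me3 gave no call in the block from 15C to 23C, again with 1 library per genotype on the 15C side. Of all genes, 0.0496% were called lower in WT and 0.0595% in hrde-1. The median H3K9me3 change over the left genes was -0.12 in WT and 0.12 in hrde-1, given as a description.

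The temperature responses of the genotypes were also set side by side. The difference between them is made of the same genotype differences that chose the block, and its 15C side is 1 library per genotype, so it is a description here with no test. For Pol II the change from 15C to 23C in hrde-1 minus that in WT was 1.81 at Y73B3A.20, 1.67 at Y35H6.3, 1.38 at Y73B3A.9, 1.25 at Y73B3A.10 and 1.21 at Y73B3A.1. From 23C to p15C the same quantity was -1.28 at Y73B3A.9 and -1.02 at Y73B3A.10. The limma fit with the generation as a block called these 5 (0.945% of all genes were called higher) and these 2 (0.134% were called lower), and the fit without it called no gene of the block, so nothing is read from the counts. The Pol II levels of these genes in hrde-1 at 23C did not reach those of WT.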

How the data were processed

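The deposited values were RPKM per gene and library, computed by the authors from ChIP-seq and input reads of C. elegans aligned to WS190 with Bowtie 0.12.7 (named in the submitters' processing notes), keeping perfect matches. The 20911 rows were reduced to the first isoform of each of 20167 genes. Names and gene types came from RefSeq (WBcel235), which matched 52 of the 58 members. Values were taken as log2(RPKM + 1), genes with a mean under 1 RPKM were left out of tests, and limma 3.58.1 in R 4.3.3 fitted a mean per genotype and phase with a trended variance and Benjamini-Hochberg adjustment over all genes. Every member passed this filter. Calls were made at 2-fold or more with an adjusted p up to 0.1. The limma fit was tested on simulated data.

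The members, gene lists and tests were chosen with earlier results of these data known. Genes named were all members called in any comparison, the 8 with the largest genotype differences per assay, the 5 highest in WT for each mark, the 5 with the largest temperature changes per genotype in Pol II, those at the bounds and hrde-1. The genes nrde-3, ife-2, math-43, fbxa-221, fbxa-16 and those used to mark the ends of runs were added after their values were seen. Same-numbered Pol II libraries of the genotypes deviated together at 23C and p15C (r = 0.355 to 0.71, where both p15C generations give 1 value), a hint from the data and not from the labels, so a fit with the generation as a block was added. At 15C-G3, with 1 library per genotype, no r can be had. Nothing in the labels says that generations are separate cultures, so p-values measure only the spread between these libraries. Depth limits cover counting error only. Promoter motifs were not analysed here.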

Additional observations from a re-analysis of the deposited data

Results flagged for a closer look

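A limma fit with the generation as a block called a larger Pol II change from 15C to 23C in hrde-1 than in WT at 5 left genes. The change in hrde-1 minus that in WT was 1.81 for Y73B3A.20, 1.67 for Y35H6.3, 1.38 for Y73B3A.9, 1.25 for Y73B3A.10 and 1.21 for Y73B3A.1, on the log2(RPKM + 1) scale. From 23C to p15C the difference was -1.28 for Y73B3A.9 and -1.02 for Y73B3A.10. The 15C phase has 1 library per genotype, so the first 5 values depend on those libraries, and without the block none of the 7 was called. The values are made of the genotype differences that chose these genes, so they are a description and not a test.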

How the results depend on the processing

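For Pol II, hrde-1 against WT, the count of 9 called genes became 13 with median centring and 12 with quantile normalization. It became 3 with a pseudocount of 5, 5 after division by input and 3 with whole-read genes only. As single libraries were left out, the count was 7 to 12. The median over the 58 genes, -0.14, became -0.66 with a mean of at least 5 RPKM, -0.28 with median centring, -0.29 with quantile normalization, -0.36 after division by input, -0.76 with a bound of 200000, 0.02 with one of 800000 and -0.03 with whole-read genes only, and ranged from -0.21 to -0.14 as libraries were left out. The H3K9me3 median, 0.02, became -0.07 with centring, -0.06 after division by input, -0.06 and 0.1 with the bounds of 200000 and 800000, and 0.09 with whole-read genes only, ranged from -0.01 to 0.05 as libraries were left out, and its count went from 0 to 7 after division by input and to 1 without hrde-1 23C-G4. The input median ranged from -0.13 to -0.02. The cause of these shifts was not tested.

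The 2 Pol II genes called from 15C to 23C in hrde-1 became 4 with a pseudocount of 0.5, 0 with one of 5, 1 with centring, 0 with quantile normalization, 0 without a variance trend, 0 with only the groups compared, 0 after division by input, 1 with whole-read genes only, and 0 to 5 as libraries were left out (5 without WT or hrde-1 23C-G2, 0 without hrde-1 23C-G6, hrde-1 23C-G4 or WT p15C-G2). The p15C change in hrde-1 gave 1 call with quantile normalization and 0 otherwise. With the replicate block the changes of response went from 0 to 5 and from 0 to 2, and the 9 Pol II calls and their median of -0.14 stayed. H3K9me3 pairs (r = 0.052 to 0.207) and input pairs (-0.274 to 0.141) share only a number. No called direction reversed under these settings. Depth limits input most, with a median of 14.4 reads per gene.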
